A study of Mus musculus with 20 samples.

Results

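Interferon-inducible and MHC class I antigen presentation genes were followed across 3 cell populations of mouse leg muscle. They comprised 41 genes, named one by one, of the 24393 genes in the count table, and each was found in the table by its symbol. The DKO groups were 4 FAP, 4 Misc and 2 SMP libraries, and the WT groups were of the same sizes, 20 libraries in all. All came from quadriceps, tibialis anterior and gastrocnemius muscle, and coordinates below are of the mouse build mm10 (GRCm38). The labels name the populations FAP, Misc and SMP, and the design text lists FB in place of Misc. As background, FAP usually means fibro/adipogenic progenitor, a mesenchymal cell lying between muscle fibres, and SMP usually means skeletal muscle progenitor. The sources used here do not give the genes that DKO stands for, any allele, strain, age, sex or treatment, how the populations were separated, or whether animals were pooled.

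As background, type I interferons act through the receptor chains Ifnar1 and Ifnar2, which activate the complex ISGF3, of which Stat2 and Irf9 are members. ISGF3 binds the interferon-stimulated response element (ISRE), whereas interferon gamma acts at the gamma-activated sequence (GAS). The induced genes restrict viral RNA, proteins and vacuoles, and they raise the loading of peptides on MHC class I molecules. Many of them are also transcribed at a low level with no infection.

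The promoters of the genes in which the results are read most closely are shown here. They carry, or lack, exact matches to the motifs of these factors. Sequences come from RefSeq (GRCm38.p6), 5′ to 3′ on the strand of the gene, and the stretches printed lie before the start of each gene, both in RefSeq's table and in the annotation behind the gene coordinates used here (for Xaf1 the start in that annotation, 72301461, lies farther upstream). Capitals mark each match within the stretch, on either strand, to the ISRE core (GAAA, any 2 bases, GAAA) or to the GAS motif TTCNNNGAA. Matches can overlap each other, as they do in Bst2.
B2m, chr2:122147530-122147575, plus strand: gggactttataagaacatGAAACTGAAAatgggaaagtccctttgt
Bst2, chr8:71537569-71537626, minus strand: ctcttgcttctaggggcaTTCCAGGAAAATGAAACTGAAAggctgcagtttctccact
Irgm1, chr11:48871421-48871468, minus strand: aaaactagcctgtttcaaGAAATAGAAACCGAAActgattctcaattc
Irf1, chr11:53769814-53770013, plus strand: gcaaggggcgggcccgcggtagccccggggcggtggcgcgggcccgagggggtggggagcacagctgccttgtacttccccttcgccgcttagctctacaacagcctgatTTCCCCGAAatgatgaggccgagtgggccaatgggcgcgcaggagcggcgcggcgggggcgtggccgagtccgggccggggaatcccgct
Xaf1, chr11:72301379-72301460, plus strand: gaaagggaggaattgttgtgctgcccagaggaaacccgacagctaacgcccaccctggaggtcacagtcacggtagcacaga
Ifi202b, chr1:173982966-173983010, minus strand: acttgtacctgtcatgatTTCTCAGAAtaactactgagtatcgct
Ifi205, chr1:174031862-174031907, minus strand: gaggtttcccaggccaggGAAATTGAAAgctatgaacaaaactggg
Psmb8, chr17:34198080-34198124, plus strand: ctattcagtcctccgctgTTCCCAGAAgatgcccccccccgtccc

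Promoter windows of 250 bases before to 50 after the start were found for 32 of the 41 genes. The ISRE core lay in a window of 16 of these 32 genes (50%), against 3.99% of the 27025 genes with a window. GAS lay in 9 of the 32 (28.1%), against 9.55% of all. Irf1 and Ifi202b held GAS and no ISRE core, B2m and Irgm1 held the ISRE core and no GAS, and Bst2 held both. Xaf1 held no exact match to either in its window, and the same was true of Oasl2, Irf9 and Psmb9. The stretch of Xaf1 printed above covers only bases -250 to -169 of its window. Sites with other spacing or letters were not searched for, so a gene without a match may still hold one. A match describes letters in the window, and nothing about binding follows from it.

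Library totals ran from 5826000 to 17730111 counts, with the 2 SMP DKO libraries smallest. Levels below are CPM, the count scaled to the TMM-adjusted library total, and calls are Benjamini-Hochberg adjusted p-values below 0.05 of edgeR's quasi-likelihood test over the 14179 genes that passed the count filter. Each ± after a fold change is a standard error, and each ± after a mean level is an SD. The text of the series calls the replicates biological but does not tie them to animals, so p-values measure the spread between these libraries. The populations carried distinct markers. The summed level of 10 satellite cell markers was 3576 to 4420 CPM in SMP libraries and 267 to 1570 CPM elsewhere, and that of 10 fibroblast and tendon markers was 55177 to 81747 CPM in Misc libraries and 1251 to 7019 CPM in the others. Both FAP and Misc carried 46214 to 77553 CPM of 10 FAP markers. SMP DKO replicate 2 stood apart. Its 16 immune markers summed to 455 CPM, against 36.5 CPM in SMP DKO replicate 1 and 23.2 to 30.4 CPM in SMP WT. Ptprc, which encodes the leukocyte antigen CD45, stood at 14.4 CPM in that library, at 0.132 CPM in SMP DKO replicate 1, and at 0.162 and 0 CPM in SMP WT. The 12 endothelial markers summed to 848 CPM in replicate 2, against 167 CPM in replicate 1 and 279 to 373 CPM in SMP WT. The genotype calls in SMP for the 41 genes, and their counts that turned on this library, are given with and without it. For other genes the SMP values include both SMP DKO libraries unless stated otherwise. The deleted genes are not named, so no check of the deletion was made. Desmin (Des), assumed from background alone to be among them, was at 3.43 to 5.33 CPM in FAP DKO and 14.2 to 18.3 CPM in FAP WT. In bulk RNA, fewer cells of a type and less RNA per cell cannot be told apart.

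Of the 41 genes, 40 were tested. Ifi44 did not pass the filter, with 54 counts over all 20 libraries and means of 0.496 CPM in FAP DKO and 0.127 CPM in FAP WT. The filter asked for 2 libraries over 0.948 CPM, from any groups. Mx1 was over it in 3 FAP DKO, 1 FAP WT and 1 Misc DKO library. With 1 such library outside FAP, the higher level of Mx1 in FAP was in part a condition for being tested. Oas2 was over it in 4 FAP DKO, 4 FAP WT, 1 Misc DKO and 1 SMP DKO library, so its test did not depend on FAP. B2m, the light chain shared by MHC class I molecules, was the most abundant gene per length in each group, at 834 ± 98.6 CPM per kb of exon in FAP DKO and 693 ± 61.5 CPM per kb in FAP WT (n = 4 each). In FAP DKO it was followed by Ifi205 at 172 ± 12.7, Ifi202b at 163 ± 60.1, H2-K1 at 138 ± 27.3 and Irf1 at 94.5 ± 11.2 CPM per kb. Ifi205, Ifi202b and H2-K1 did not differ beyond the spread of Ifi202b. The antiviral effector genes were far lower per length, with Ifit1 at 7.17, Mx2 at 4.08, Rsad2 at 1.11 and Oas2 at 0.936 CPM per kb in FAP DKO.

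Among the 3 populations, FAP carried the highest level of most of these genes, in both genotypes. In DKO, 34 of 40 were higher in FAP than in Misc and none was lower, where 16.0% of all tested genes were higher and 13.7% lower. At an unadjusted p below 0.05, 39 were higher and 1 was lower in that comparison, and the share of all genes is not given. DESeq2 called 35 higher and 0 lower, beside 4279 of 15648 genes in either direction. In WT, 30 of 40 were higher in FAP than in Misc and 1 was lower, where 19.3% of all tested genes were higher and 17.6% lower. The median log2 difference of the 40 genes between FAP and Misc was 1.22 in DKO and 1.04 in WT, while over all tested genes it was -0.02 and 0.01. Libraries did not overlap for 32 genes higher in FAP than in Misc in DKO and none lower, beside 14.7% and 13.1% of all tested genes, and for 29 and 1 in WT, beside 20.9% and 19.0%. FAP and Misc libraries of the same replicate number deviated together. With that number as a block, 39 genes were higher and 1 lower in DKO, and 37 higher and 1 lower in WT. The share of all genes called with the block is not given here, so the blocked counts cannot be set against it.

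FAP also stood above SMP. In DKO, 31 of 40 genes were higher in FAP than in SMP and none was lower, beside 29.2% and 29.6% of all tested genes (58.8% in either direction). In WT, 30 of 40 were higher and none was lower, beside 31.1% and 31.3% of all tested genes (62.3% in either direction). Libraries did not overlap for 30 genes higher in FAP and none lower in DKO, beside 32.9% and 32.7%, and for 36 and 1 in WT, beside 35.9% and 35.9%. Unadjusted, 34 genes in DKO and 33 in WT were higher at p below 0.05 and none was lower, without a share of all genes. DESeq2 called 31 higher in each with none lower. Beside these, it called 8200 of 15278 genes in DKO and 8842 of 16389 in WT, in either direction. The DKO count turned on the SMP DKO libraries. It was 37 without SMP DKO replicate 2, beside 26.3% of all genes. Without SMP DKO replicate 1 it was 16, with 1 gene lower, beside 22.3% and 22.8% of all genes, and the remaining SMP DKO library was then assumed to vary like the other groups. In all, 23 genes were higher in FAP than in both other populations in both genotypes, a pattern held by 7.39% of all tested genes. Misc and SMP differed in both directions. In DKO, 6 genes were higher in Misc than in SMP and 5 lower, beside 29.8% and 29.7% of all tested genes (59.5% in either direction), and these became 13 and 1 without SMP DKO replicate 2, beside 26.8% and 24.6%, and 2 and 12 without SMP DKO replicate 1, beside 46.8% in either direction. In WT, 12 were higher and 5 lower, beside 30.6% and 30.0% (60.6% in either direction).

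**Figure D1:**
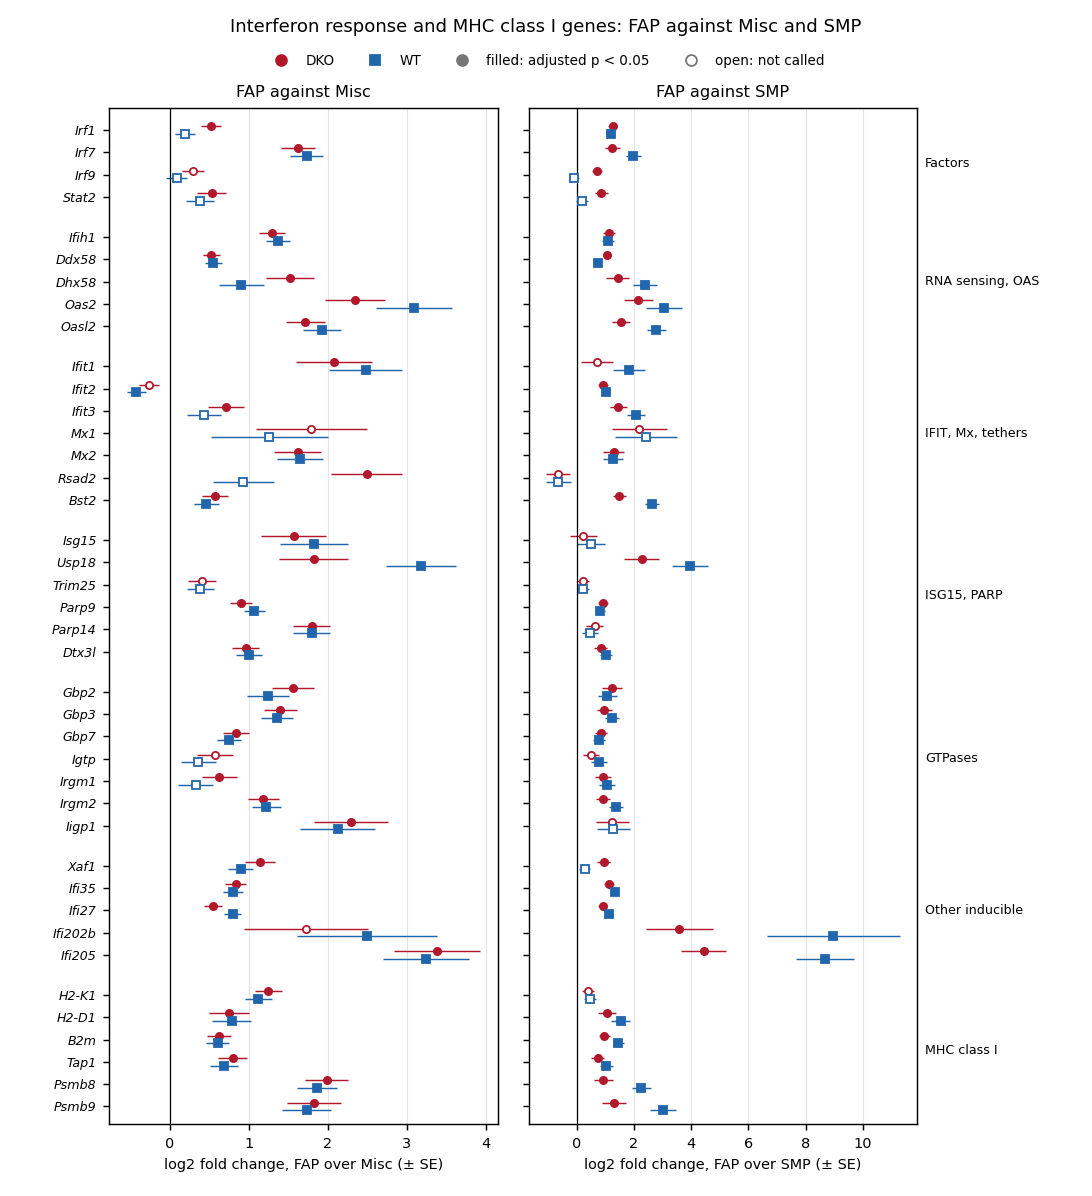
The log2 fold change (± SE) of each tested gene in FAP over Misc (left) and FAP over SMP (right), with DKO as circles, WT as squares and called values filled, grouped by role. All but 1 value lie right of 0 in the FAP over Misc panel for each genotype, the exception being Ifit2, and the WT values of Ifi205 and Ifi202b lie farthest out in FAP over SMP, that of Ifi202b from 2 counts in SMP WT.

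By role, all 5 genes of RNA sensing and the OAS family were higher in FAP in each of the 4 comparisons. Ifih1, which encodes the long double-stranded RNA sensor MDA5, was higher in FAP than in Misc by 1.29 ± 0.16 on the log2 scale in DKO and 1.37 ± 0.16 in WT. Ddx58, which encodes the sensor RIG-I, differed less, by 0.53 ± 0.11 in DKO and 0.56 ± 0.11 in WT. Its levels were 40.5, 41.2, 37.7 and 38.9 CPM in FAP DKO, 26.9, 29.5, 28.6 and 24.5 CPM in Misc DKO, and 14.4 and 23.9 CPM in SMP DKO. No library of Misc or SMP reached the FAP range in DKO. In WT it stood at 40.0, 40.3, 38.6 and 36.8 CPM in FAP, at 25.1, 27.6, 26.7 and 26.7 CPM in Misc, and at 22.5 and 24.7 CPM in SMP, again with FAP apart.

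The pathway factors were closer together. Irf7, an amplifier of type I interferon transcription, was higher in FAP than in Misc by 1.63 ± 0.22 in DKO and 1.74 ± 0.21 in WT, and it was above SMP as well. Irf9 and Stat2, members of ISGF3, were higher in FAP than in SMP in DKO, by 0.70 ± 0.18 and 0.84 ± 0.23, but were not called in WT, where their values were -0.10 ± 0.17 and 0.18 ± 0.22. Irf9 was not called between FAP and Misc (log2 0.30 ± 0.14 in DKO, adjusted p = 0.11, and 0.09 ± 0.14 in WT), although with the replicate block it was called in DKO at 0.30 ± 0.09 (adjusted p = 0.0091).

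Among the IFIT, Mx and related effectors, 5 of 7 were higher in FAP than in Misc in DKO and 3 of 7 in WT. Ifit2, which binds viral RNA and alters translation, went the other way. Its levels were 30.9, 21.6, 31.4 and 26.9 CPM in FAP DKO and 34.0, 29.8, 35.5 and 34.2 CPM in Misc DKO, with some overlap. In WT they were 31.4, 29.0, 31.6 and 33.2 CPM in FAP and 38.5, 46.9, 41.1 and 41.2 CPM in Misc, with none. The difference of FAP from Misc was called in WT (log2 -0.42 ± 0.12, adjusted p = 0.0063) and not in DKO (-0.26 ± 0.12, adjusted p = 0.12), where the replicate block gave -0.27 ± 0.10 and an adjusted p of 0.023. SMP had the least Ifit2, with 11.6 and 18.2 CPM in DKO and 15.2 and 16.0 CPM in WT. Rsad2, which encodes the antiviral enzyme viperin, was lowest in Misc. It was at 4.83 ± 1.97 CPM in FAP DKO, 0.830 ± 0.447 CPM in Misc DKO and 7.47 ± 5.35 CPM in SMP DKO (n = 4, 4 and 2), and Misc was lower than SMP by 3.14 ± 0.49 on the log2 scale in DKO (adjusted p = 9.9e-06). In WT it was at 3.05 ± 0.773 CPM in FAP, 1.60 ± 0.745 CPM in Misc and 4.79 ± 0.331 CPM in SMP, and Misc was lower than SMP by 1.58 ± 0.44 (adjusted p = 0.0033).

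Parp14 and Isg15 showed a similar order. Parp14, an ADP-ribosyltransferase of the interferon response, had 76.1, 90.7, 72.7 and 97.2 CPM in FAP DKO, 22.2, 30.8, 20.4 and 23.6 CPM in Misc DKO, and 30.3 and 79.7 CPM in SMP DKO. Misc lay below all FAP libraries, while the 2 SMP DKO libraries lay far from each other. In WT it had 79.1, 86.4, 91.2 and 88.1 CPM in FAP, 20.5, 28.4, 28.0 and 22.3 CPM in Misc, and 78.4 and 47.2 CPM in SMP, so that FAP and Misc stood apart and SMP lay between or near FAP. The FAP over Misc difference was 1.79 ± 0.24 in DKO and 1.80 ± 0.23 in WT, and Misc was lower than SMP by 1.18 ± 0.28 in DKO and 1.34 ± 0.27 in WT. The DKO call against SMP was lost without SMP DKO replicate 2 (log2 -0.31, adjusted p = 0.32). Isg15, a ubiquitin-like modifier, was higher in FAP than in Misc by 1.57 ± 0.41 in DKO and 1.82 ± 0.43 in WT. Against SMP it was not called, except in WT with the replicate block (log2 0.78 ± 0.33, adjusted p = 0.046). Usp18, the protease that removes ISG15, was higher in FAP than in both, by 1.82 to 3.97 on the log2 scale. Trim25, a ubiquitin ligase for RIG-I, was called in none of these 4 comparisons (log2 0.20 to 0.41), though the replicate block called it against Misc in both genotypes, and without SMP DKO replicate 2 it was higher in FAP DKO than in SMP DKO by 0.76 ± 0.23 (adjusted p = 0.0074). Parp9 and Dtx3l encode a complex and overlap each other by 558 bases. Whether the counting used strand is not given, so their values, both higher in FAP, may share reads. The spans, introns included, of Stat2 (Apof, 753 bases), Ifit1 (Ifit1bl1, 9121), Ifi27 (Ifi27l2a, 6057) and B2m (Patl2, 5396) also overlap a protein-coding gene. Whether the exons of these overlap was not checked.

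Of the 7 interferon-inducible GTPases, which attack vacuoles of intracellular pathogens, 6 were higher in FAP than in Misc in DKO and 5 in WT. Gbp2 was the most abundant of them per length in FAP DKO, at 51.9 CPM per kb, and was higher in FAP than in Misc by 1.56 ± 0.27 in DKO and 1.24 ± 0.26 in WT. Iigp1 was higher by 2.30 ± 0.47 and 2.12 ± 0.47. Igtp was not called against Misc in either genotype, at 0.58 ± 0.22 (adjusted p = 0.062) in DKO and 0.36 ± 0.22 (adjusted p = 0.23) in WT, and with the replicate block it was called in both. Guanylate-binding and IRG genes lie in clusters of close paralogs, as do the IFIT, HIN-200 and MHC class I genes, and reads may be divided among copies.

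MHC class I presentation genes followed suit, with all 6 higher in FAP than in Misc in both genotypes and 5 of 6 higher in FAP than in SMP in both. Without SMP DKO replicate 1 the FAP over SMP calls in DKO were lost for Psmb8 (log2 0.34, adjusted p = 0.39) and Psmb9 (0.86, adjusted p = 0.17), and with only the compared groups in the fit for Psmb8 (0.93, adjusted p = 0.11). Psmb8 and Psmb9, the catalytic subunits that turn the proteasome into the immunoproteasome, differed most from Misc, by 1.98 ± 0.27 and 1.83 ± 0.34 in DKO and 1.86 ± 0.25 and 1.73 ± 0.31 in WT. Tap1, a subunit of the peptide transporter, was higher by 0.80 ± 0.18 and 0.68 ± 0.18. H2-K1, a class I heavy chain, was higher than in Misc by 1.25 ± 0.17 and 1.12 ± 0.17 and was not called against SMP (0.40 ± 0.21, adjusted p = 0.11 in DKO, and 0.46 ± 0.21, adjusted p = 0.064 in WT). Without SMP DKO replicate 2 it was called higher in FAP DKO than in SMP DKO, by 0.74 ± 0.26 (adjusted p = 0.023). The other heavy chain, H2-D1, was higher than in Misc by 0.75 ± 0.25 in DKO and 0.78 ± 0.25 in WT, and higher than in SMP by 1.05 ± 0.32 and 1.52 ± 0.33.

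Related genes outside the 41 were compared in the same way. Of 46 tested interferon-stimulated genes that are not among the 41, 33 were higher in FAP than in Misc in DKO and 0 lower, beside 16.0% and 13.7% of all tested genes. In WT 31 were higher and 2 lower, beside 19.3% and 17.6%. Against SMP, 32 were higher in FAP and 3 lower in DKO, beside 29.2% and 29.6%, and 35 and 2 in WT, beside 31.1% and 31.3%. All 5 tested HIN-200 genes beside Ifi202b and Ifi205 were higher in FAP than in either population in both genotypes. Interferons themselves were hardly transcribed. Of 21 interferon genes, 17 to 19 had no count in any library of a group, and their summed level was 0.120 to 1.62 CPM across all 20 libraries. Ifnar1 was at 78.8 ± 4.24 CPM in FAP DKO, 86.3 ± 4.21 CPM in Misc DKO and 68.9 ± 11.5 CPM in SMP DKO, and Ifnar2 at 85.6 ± 7.88, 51.9 ± 4.54 and 49.5 ± 9.82 CPM (n = 4, 4 and 2). The sum of endothelial markers also differed with the population, at 307 to 408 CPM in FAP DKO and 176 to 210 CPM in Misc DKO, and at 479 to 625 CPM in FAP WT and 221 to 271 CPM in Misc WT, each summed over 12 genes, none of them at 0 in a group. Only 1 of the 12 was called higher in FAP than in Misc in each genotype, and 0 lower. Cdh5, which is among the 12, overlapped in DKO, at 2.45 to 14.5 CPM in FAP and 5.51 to 9.08 CPM in Misc. Immune markers summed to 26.6 to 76.9 CPM in FAP DKO and 17.5 to 33.3 CPM in Misc DKO, with 1 of 16 at 0 throughout each group. In WT they summed to 13.2 to 34.2 CPM in FAP and 14.7 to 21.0 CPM in Misc, with 1 and 4 of 16 at 0. Their part in the difference between populations was not tested.

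Between genotypes the picture was different, since most of these genes were called in no population. In FAP, 1 of 40 was higher in DKO and 2 were lower, beside 5.58% and 5.14% of all tested genes. In Misc, 2 were higher and 3 lower, beside 9.15% and 9.55%. In SMP, 8 were higher and 3 lower, beside 11.8% and 11.2%. Libraries of the genotypes did not overlap for 2 genes higher and 2 lower in FAP, beside 8.87% and 10.3% of all tested genes, for 4 and 4 in Misc, beside 9.92% and 11.3%, and for 12 and 3 in SMP, beside 27.4% and 28.3%. These counts were over all 41 genes, and Ifi44, which was not tested, was among the higher ones in Misc and in SMP. Median log2 differences between DKO and WT were 0.04 in FAP, 0.02 in Misc and 0.27 in SMP, against -0.01, 0.01 and 0.01 over all tested genes. By edgeR, 28 genes were called in none of the 3 populations. The share of all tested genes called in none is not given here, so this count cannot be set against it. Of the 28 genes, DESeq2 called Ifit2 lower in Misc DKO (log2 -0.33 ± 0.12, adjusted p = 0.044). The replicate block, which here shared the number between DKO and WT, called Isg15 higher in Misc DKO (0.91 ± 0.31, adjusted p = 0.044). The 28 genes include Irf7, Stat2, Ifih1, Ddx58, Dhx58, Ifit1, Ifit2, Ifit3, Mx1, Mx2, Rsad2, Isg15, Usp18 and Trim25. The other uncalled genes were Parp9, Parp14, Dtx3l, Gbp2, Gbp3, Gbp7, Igtp, Irgm2, Iigp1, Ifi35, Ifi27, H2-K1, H2-D1 and Tap1. Irf1 and Xaf1 were lower in DKO of all 3 populations, which held for 1.09% of all tested genes. Oas2 was higher in all 3, which held for 0.938%.

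**Figure D2:**
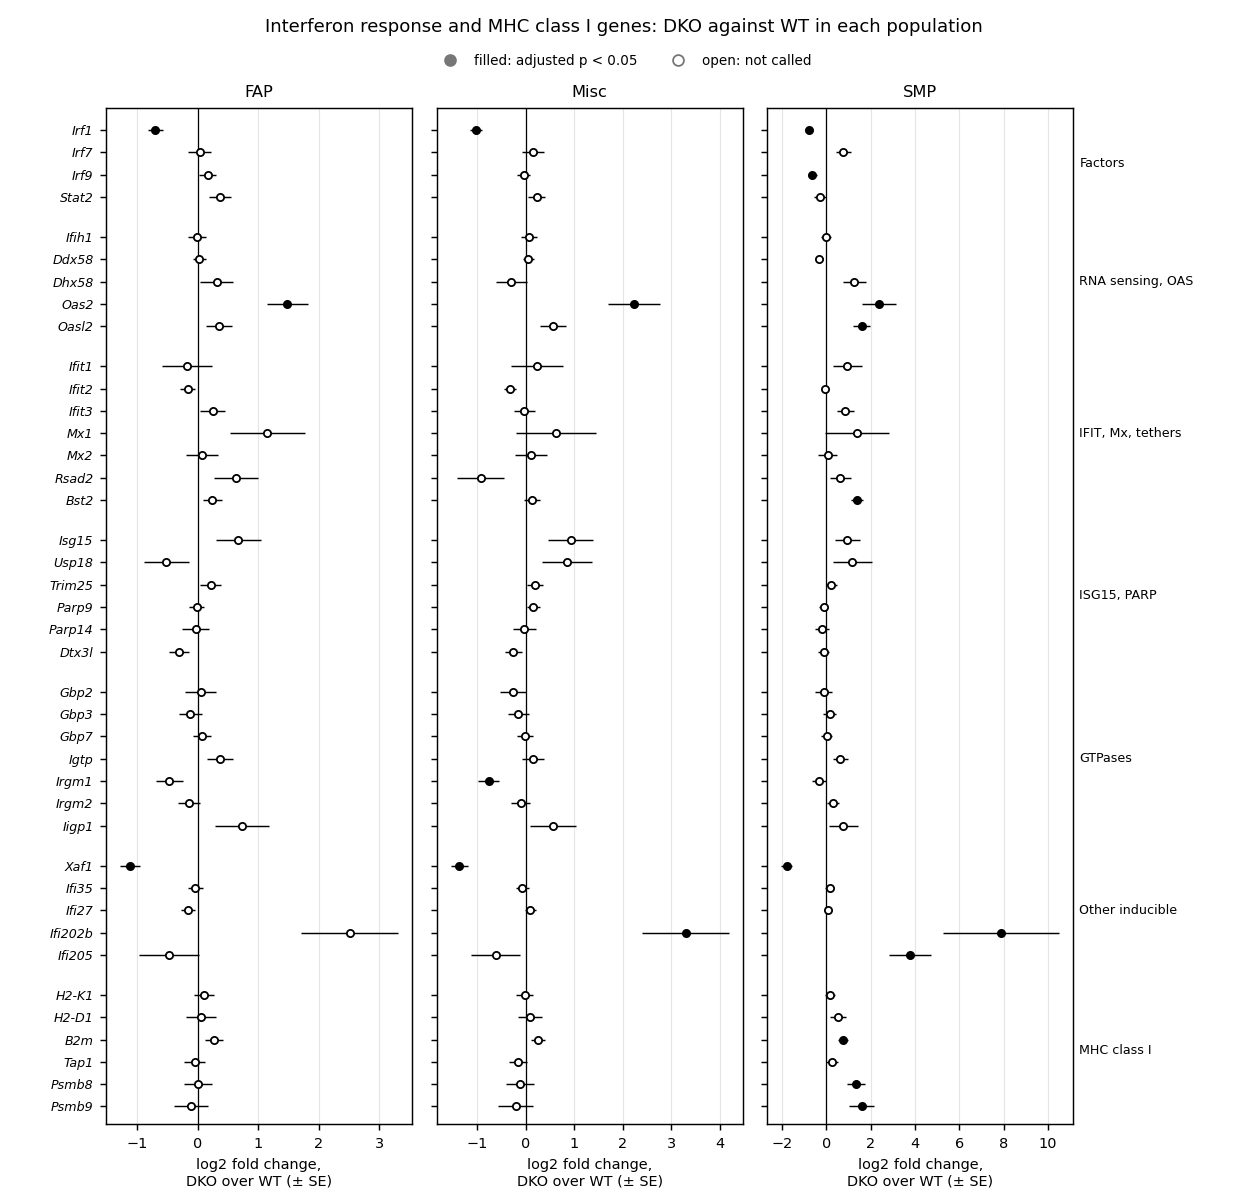
The log2 fold change (± SE) of DKO over WT for each tested gene in FAP, Misc and SMP, with called values filled and each panel on its own scale. Xaf1 and Irf1 are filled left of 0 in every panel, Oas2 is filled right of 0 in every panel, and most other points are open.

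Xaf1 was lower in DKO of each population under every alternative run. It encodes an interferon-inducible partner and antagonist of XIAP, an inhibitor of caspases. FAP DKO libraries had 12.4, 11.3, 11.0 and 15.5 CPM of Xaf1, against 21.4, 27.9, 28.5 and 32.5 CPM in FAP WT. The Misc DKO libraries had 5.23, 6.71, 5.03 and 5.83 CPM, against 10.2, 15.5, 15.9 and 18.1 CPM in Misc WT. SMP DKO libraries had 6.19 and 6.96 CPM, against 20.8 and 24.8 CPM in SMP WT. Every DKO library lay below every WT library of its population, including both SMP DKO libraries. Xaf1 fell in DKO by 1.13 ± 0.16 on the log2 scale in FAP (adjusted p = 5.3e-05), by 1.37 ± 0.18 in Misc (adjusted p = 8.1e-06) and by 1.79 ± 0.25 in SMP (adjusted p = 3.15e-05). The size of the fall was not called different between any pair of populations (adjusted p = 0.16 to 0.77). Without SMP DKO replicate 2, Xaf1 fell in SMP by 1.89 ± 0.33 (adjusted p = 0.00044). Xaf1 was also lower in Misc than in SMP in WT, by 0.62 ± 0.19 (adjusted p = 0.0064), a call lost without SMP WT replicate 2 (log2 -0.49, adjusted p = 0.10), whereas Misc and SMP were not called different in DKO.

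Irf1, a transcription factor induced by interferon gamma, held a GAS in the stretch printed above. It had 317, 403, 416 and 367 CPM in FAP DKO, against 608, 667, 596 and 572 CPM in FAP WT. In Misc it had 275, 261, 222 and 286 CPM in DKO, against 519, 589, 499 and 530.1 CPM in WT. SMP DKO libraries had 119.5 and 197 CPM, against 286 and 254 CPM in SMP WT. The genotypes did not overlap in any population. Irf1 fell in DKO by 0.70 ± 0.13 in FAP (adjusted p = 0.00060), by 1.03 ± 0.13 in Misc (adjusted p = 2.7e-06) and by 0.77 ± 0.18 in SMP (adjusted p = 0.0038). The SMP call was lost without SMP DKO replicate 1 (log2 -0.47, adjusted p = 0.063) and with only the SMP libraries in the fit (adjusted p = 0.11). Irf1 is also an immediate early gene, and 6 of 12 immediate early and stress genes were lower in FAP DKO, 5 of 12 in Misc DKO and 9 of 12 in SMP DKO, with 1, 2 and 0 higher. Of all tested genes, 5.14%, 9.55% and 11.2% were lower, and 5.58%, 9.15% and 11.8% higher. Fos, which encodes a subunit of AP-1, fell by 0.57 ± 0.11 in FAP, 0.53 ± 0.11 in Misc and 1.58 ± 0.16 in SMP. The summed level of the 12 genes was 36645 to 47091 CPM in FAP DKO, against 36987 to 39565 CPM in FAP WT, and 42255 to 55168 CPM in Misc DKO, against 38948 to 47403 CPM in Misc WT. It was 36537 to 41484 CPM in SMP DKO, against 61000.4 to 70733 CPM in SMP WT. Their part in the Irf1 difference was not tested.

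Oas2 encodes a 2′-5′ oligoadenylate synthetase, which makes the activator of the antiviral nuclease RNase L. It was scarce, with 4.29, 5.64, 2.81 and 3.92 CPM in FAP DKO, against 1.49, 1.42, 1.25 and 1.71 CPM in FAP WT. Misc DKO libraries had 1.12, 0.599, 0.599 and 0.906 CPM, against 0.118, 0.315, 0.0911 and 0.114 CPM in Misc WT. In SMP it had 0.395 and 1.48 CPM in DKO, against 0.243 and 0.0877 CPM in WT. By CPM, every DKO library lay above every WT library of its population. In SMP, DKO replicate 1 and WT replicate 1 each had 3 counts, so their order came from library scaling alone. Misc DKO replicates 2 and 3 had 5 counts each, against 4 in Misc WT replicate 2. Oas2 rose in DKO by 1.48 ± 0.34 in FAP (adjusted p = 0.0052), by 2.23 ± 0.54 in Misc (adjusted p = 0.0047) and by 2.37 ± 0.76 in SMP (adjusted p = 0.028). Counts were few outside FAP, with 26 in Misc DKO against 8 in Misc WT and 13 in SMP DKO against 4 in SMP WT. From those counts the ratio of levels was 4.95 (exact 95% interval 2.18 to 12.7) in Misc and 5.38 (1.66 to 22.7) in SMP, intervals that cover counting error only. The SMP call was lost without SMP DKO replicate 2 (log2 1.17, adjusted p = 0.49), without SMP WT replicate 1 (3.21, adjusted p = 0.0504) and without SMP WT replicate 2 (1.84, adjusted p = 0.15).

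**Figure D3:**
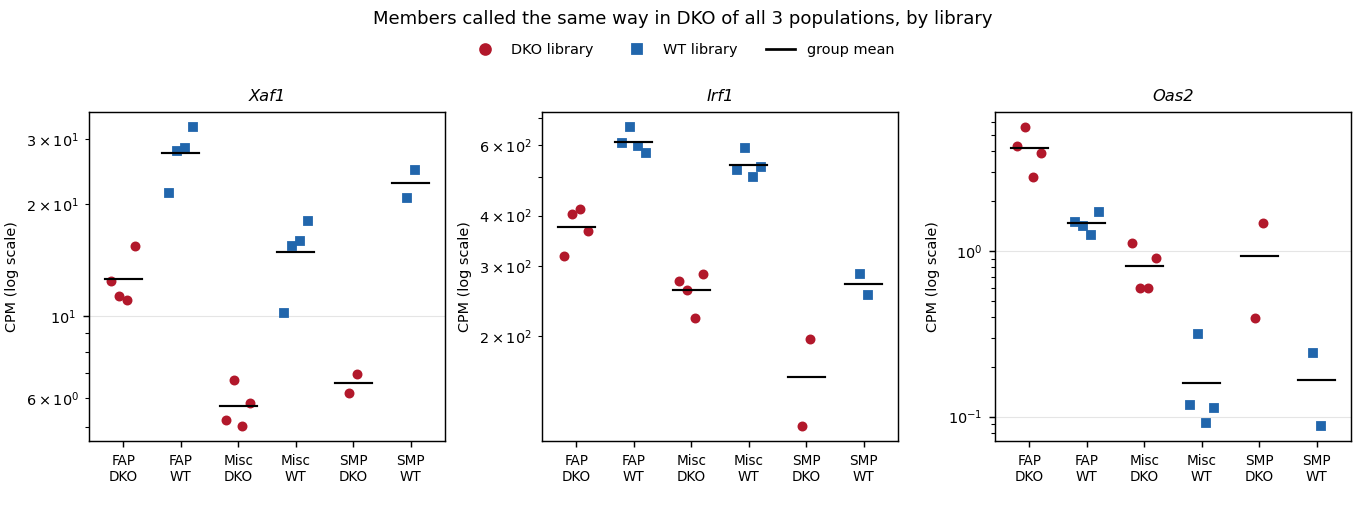
Level of Xaf1, Irf1 and Oas2 in CPM on a log scale, 1 point per library (DKO circles, WT squares) and a bar at each group mean. For Xaf1 and Irf1 the DKO libraries lie under the WT libraries of the same population, and for Oas2 they lie above them.

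Ifi202b varied widely among libraries. It is a mouse HIN-200 gene at chr1:173962569-173982844 whose product binds DNA, as background, and it lies in a cluster with Ifi205 at chr1:174011998-174031755. FAP DKO libraries had 148, 368, 242 and 348 CPM of Ifi202b, against 71.7, 89.7, 31.6 and 0.571 CPM in FAP WT. In Misc the DKO libraries had 40.8, 137, 80.5 and 76.7 CPM, against 12.3, 12.5, 6.74 and 1.14 CPM in Misc WT. DKO and WT did not overlap in either, and WT replicate 4 was the lowest library in both. SMP DKO libraries had 6.59 and 40.0 CPM, against 0.162 and 0 CPM in SMP WT. The rise was called in Misc (log2 3.29 ± 0.89, adjusted p = 0.019) and in SMP (7.90 ± 2.62, adjusted p = 0.043), and it was not called in FAP (2.51 ± 0.80, adjusted p = 0.062).

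The size of the Ifi202b difference rests on few WT counts in SMP, where 320 counts in DKO stood against 2 in WT. The ratio of levels from these counts was 265, with an exact 95% interval of 72.8 to 2197 for counting error only, and the fitted fold change depends on the prior count. The SMP call was lost with no filter on low counts (log2 7.86, adjusted p = 0.058), with the replicate block (7.74, adjusted p = 0.054) and with only the SMP libraries in the fit (7.88, adjusted p = 0.13). It was also lost without SMP DKO replicate 2 (6.09, adjusted p = 0.29), SMP WT replicate 1 (10.83, adjusted p = 0.16) or SMP WT replicate 2 (7.02, adjusted p = 0.16), while DESeq2 called it (8.16, adjusted p = 3.34e-05). The Misc call was lost without Misc DKO replicate 2 (log2 2.95, adjusted p = 0.051) and without Misc WT replicate 4 (2.96, adjusted p = 0.052).

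Unlike Ifi202b, its neighbour was not called in Misc. Ifi205 had 741, 729, 763 and 643 CPM in FAP DKO, against 738, 1268, 1080.0 and 932 CPM in FAP WT. Misc DKO libraries had 77.5, 76.9, 84.5 and 37.4 CPM, against 65.8, 163, 101 and 94.6 CPM in Misc WT. Genotypes overlapped in both, and neither was called (log2 -0.48 ± 0.49 and -0.62 ± 0.51). In SMP the DKO libraries had 3.03 and 64.0 CPM, against 2.35 and 2.54 CPM in WT, so that replicate 2 alone was high. The SMP call (log2 3.76 ± 0.95, adjusted p = 0.012) fell to 0.30 (adjusted p = 0.855) without that library. Of 5 other HIN-200 genes tested, 0 were called in FAP or in Misc, with 0 at an unadjusted p below 0.05 and 0 by DESeq2. In SMP 3 were higher in DKO (Ifi204, Mnda and Ifi203), and without SMP DKO replicate 2 none was.

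**Figure D4:**
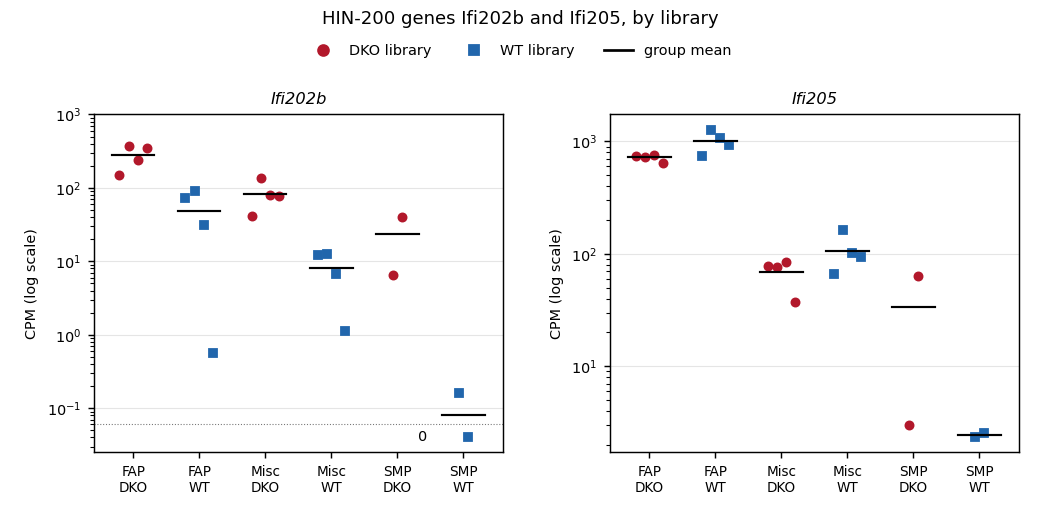
Level of Ifi202b and Ifi205 in CPM on a log scale, 1 point per library (DKO circles, WT squares) and a bar at each group mean, with a library at 0 drawn under the dotted line. Ifi202b is higher in each DKO group than in its WT group, with WT replicate 4 lowest in FAP and Misc, while Ifi205 overlaps between genotypes in FAP and Misc and is high in 1 SMP DKO library.

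Irgm1, which encodes a regulator of the other IRG GTPases, was lower in Misc DKO. It had 97.6, 101, 71.8 and 108 CPM there, against 130.3, 182, 170.2 and 163 CPM in Misc WT, with no overlap. It fell by 0.77 ± 0.22 in Misc (adjusted p = 0.022), a call lost without Misc DKO replicate 3, Misc WT replicate 2 or Misc WT replicate 3 (adjusted p = 0.051 to 0.067). In FAP the values were 107, 180.0, 126 and 173 CPM in DKO, against 170, 229.9, 197 and 214 CPM in WT, and the difference of -0.47 ± 0.22 was not called (adjusted p = 0.19). SMP DKO had 45.1 and 109.6 CPM, against 103 and 92.5 CPM in SMP WT, which overlapped.

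The other calls came from SMP, where 8 genes were higher in DKO. Besides Oas2, Ifi202b and Ifi205 these were Bst2, Oasl2, B2m, Psmb8 and Psmb9. Bst2, which encodes tetherin, a protein that holds budding virus at the cell surface, had 5.93 and 9.78 CPM in SMP DKO, against 3.40 and 2.54 CPM in SMP WT, and rose by 1.38 ± 0.29 (adjusted p = 0.0017). Oasl2, an OAS-like protein, had 5.67 and 14.2 CPM in SMP DKO, against 2.59 and 3.94 CPM in SMP WT, and rose by 1.59 ± 0.40 (adjusted p = 0.0077). In both genes each DKO library was above each WT library, and replicate 2 was the higher. Elsewhere the genotypes of both genes were closer. Bst2 had 22.3, 24.3, 20.4 and 20.0 CPM in FAP DKO, against 18.8, 17.1, 21.3 and 16.0 CPM in FAP WT, and 18.3, 14.4, 10.3 and 15.4 CPM in Misc DKO, against 13.1, 15.6, 13.4 and 10.9 CPM in Misc WT. Oasl2 had 27.1, 33.5, 17.6 and 36.6 CPM in FAP DKO, against 20.6, 23.3, 24.7 and 21.2 CPM in FAP WT, and 8.34, 10.4, 6.47 and 9.58 CPM in Misc DKO, against 5.07, 6.86, 7.10 and 4.54 CPM in Misc WT. All 4 pairs of groups overlapped.

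The MHC class I members showed the same arrangement. B2m had 238 and 501 CPM in SMP DKO, against 224 and 215 CPM in SMP WT (log2 0.75 ± 0.21, adjusted p = 0.013). Psmb8 had 4.08 and 12.6 CPM in SMP DKO, against 2.51 and 4.03 CPM in SMP WT (1.34 ± 0.39, adjusted p = 0.018). Psmb9 had 1.32 and 2.81 CPM in SMP DKO, against 0.973 and 0.351 CPM in SMP WT (1.59 ± 0.56, adjusted p = 0.044), from 29 counts in DKO and 16 in WT. DKO lay above WT in all 3 genes, narrowly in replicate 1 and widely in replicate 2. These 8 calls were all lost without SMP DKO replicate 2 (for Bst2, log2 0.98 and adjusted p = 0.054) and with only the SMP libraries in the fit, where Oas2 gave no value. Oasl2 and Psmb8 were lost without SMP WT replicate 1, Psmb9 without SMP WT replicate 2, and B2m and Ifi205 without either (adjusted p = 0.063 to 0.27). Psmb9 was also lost with no filter on low counts (log2 1.56, adjusted p = 0.053). In FAP and Misc none of Bst2, Oasl2, B2m, Psmb8 and Psmb9 was called by edgeR or DESeq2. B2m had 705, 765, 603 and 796 CPM in FAP DKO, against 548, 656, 624 and 554 CPM in FAP WT, and 446, 483, 454 and 479.5 CPM in Misc DKO, against 398, 423, 344 and 397 CPM in Misc WT. It overlapped in FAP and did not in Misc, where the difference of 0.25 ± 0.15 was not called (adjusted p = 0.255). Psmb8 had 16.3, 20.8, 13.7 and 12.3 CPM in FAP DKO, against 13.9, 16.5, 17.4 and 14.6 CPM in FAP WT, and 4.48, 3.71, 2.76 and 4.92 CPM in Misc DKO, against 3.54, 5.44, 4.83 and 3.29 CPM in Misc WT. Psmb9 had 4.66, 6.74, 3.68 and 5.39 CPM in FAP DKO, against 7.85, 6.69, 3.67 and 3.71 CPM in FAP WT, and 1.49, 1.80, 1.08 and 1.29 CPM in Misc DKO, against 1.77, 1.5, 2.09 and 1.14 CPM in Misc WT. Both proteasome genes overlapped between genotypes in FAP and Misc.

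Lower in SMP DKO, besides Irf1 and Xaf1, was Irf9. It had 43.4 and 47.6 CPM in SMP DKO, against 77.3 and 63.9 CPM in SMP WT, without overlap, and fell by 0.64 ± 0.20 (adjusted p = 0.024). The call was lost without SMP DKO replicate 1 (log2 -0.59, adjusted p = 0.11), SMP DKO replicate 2 (-0.71, adjusted p = 0.057) or SMP WT replicate 1 (-0.50, adjusted p = 0.17). Irf9 had 61.6, 88.1, 65.6 and 80.1 CPM in FAP DKO, against 59.1, 65.0, 73.7 and 65.9 CPM in FAP WT. In Misc it had 63.7, 63.5, 44.0 and 68.5 CPM in DKO, against 52.4, 62.4, 76.2 and 57.1 CPM in WT. The genotypes overlapped in both.

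SMP DKO replicate 2 decided most of the SMP calls. Of the 40 genes, 37 were higher in replicate 2 than in replicate 1 (92.5%), against 51.3% of all tested genes. The median log2 ratio to the mean of SMP WT, with 1 CPM added, was 0.63 in replicate 2 and -0.31 in replicate 1, against 0.01 and -0.04 over all tested genes. Without replicate 2, edgeR called 0 genes higher and 6 lower, beside 6.54% and 8.67% of all tested genes. Those 6 were Irf1, Xaf1, Ddx58 (log2 -0.73 ± 0.17), Parp9 (-0.63 ± 0.20), Parp14 (-1.06 ± 0.28) and Irgm1 (-1.13 ± 0.29). Without replicate 1, Ifi44 passed the filter, and 14 of 41 genes were higher, Ifi44 among them, and 1 was lower, beside 11.2% and 8.04%.

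Markers of other cells moved with replicate 2. Of 12 immune markers tested, edgeR called 9 higher in SMP DKO than in SMP WT (DESeq2 6), and none without replicate 2. Of 7 MHC class II genes, which display peptides on immune cells, edgeR called 6 higher (DESeq2 2), and none without it. Summed over the 7, class II reached 622 CPM in replicate 2, against 10.01 CPM in replicate 1 and 2.63 to 4.95 CPM in SMP WT. At 0 in both SMP WT libraries were 7 of the 16 immune markers, and 1 of 16 was at 0 in both SMP DKO libraries. FAP markers summed to 9800 CPM in replicate 2, against 3951 CPM in replicate 1 and 5921 to 6376 CPM in SMP WT. The part of these cells in the SMP calls was not tested. Muscle fibre markers were higher in both SMP DKO libraries, at 255 and 615 CPM, against 136 and 161 CPM in SMP WT, summed over 8 genes, and 7 of the 8 were called with and without replicate 2.

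**Figure D5:**
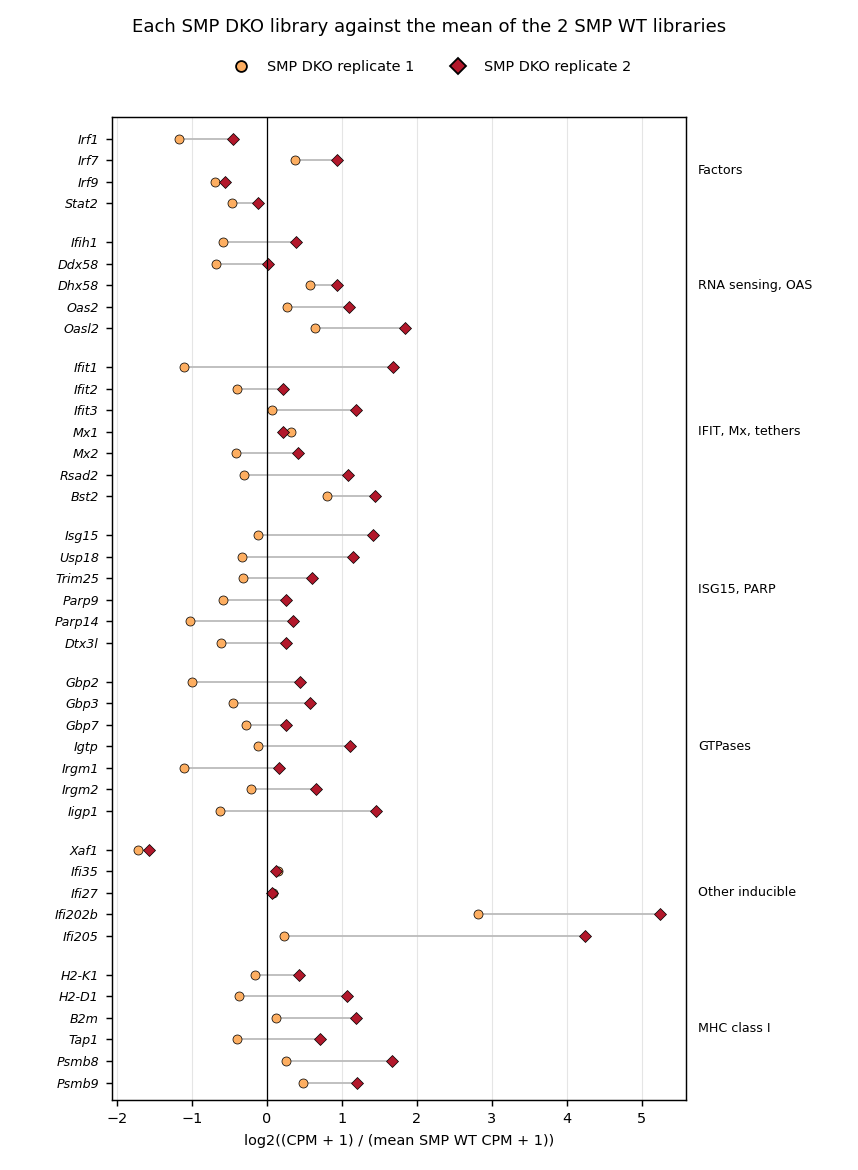
The log2 ratio of each SMP DKO library (replicate 1 circles, replicate 2 diamonds) to the mean of the 2 SMP WT libraries, with 1 CPM added to both, for each tested gene. Replicate 2 lies right of replicate 1 in 37 of 40 genes, while Xaf1 is left of 0 in both libraries.

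Whether the genotype difference itself differed between populations was tested for each pair. Between FAP and Misc, edgeR called 0 of 40 genes, with 2 at an unadjusted p below 0.05 and 0 by DESeq2, beside 2.79% of all tested genes. With the replicate block 1 gene was called, Rsad2 (log2 1.58, adjusted p = 0.015). Between FAP and SMP, Irf9 was higher (0.80 ± 0.24, adjusted p = 0.036), and Bst2 (-1.14 ± 0.33, adjusted p = 0.028) and Ifi205 (-4.24 ± 1.07, adjusted p = 0.022) were lower, beside 4.92% and 5.42% of all tested genes (10.3% in either direction). Between Misc and SMP, Bst2 (-1.25 ± 0.33, adjusted p = 0.019) and Ifi205 (-4.38 ± 1.07, adjusted p = 0.021) were lower and none was higher, beside 4.34% and 4.61% (8.94% in either direction). At an unadjusted p below 0.05, 1 was higher and 7 lower, and by DESeq2 0 and 3. In the FAP and SMP difference, 3 were higher and 5 lower at an unadjusted p below 0.05, and by DESeq2 1 and 5. Beside the edgeR calls, DESeq2 called Oasl2 (-1.27, adjusted p = 0.048), Ifi202b (-5.64, adjusted p = 0.032) and Psmb8 (-1.35, adjusted p = 0.045) lower there. It also called Psmb8 lower in the Misc and SMP difference (-1.48, adjusted p = 0.038). With the replicate block Psmb8 was lower in both (-1.29 and -1.38, adjusted p = 0.044 and 0.049). None of the edgeR calls held without SMP DKO replicate 2. Irf9 then differed by 0.87 ± 0.29 between FAP and SMP (adjusted p = 0.066). Bst2 differed by -0.74 ± 0.37 between FAP and SMP and by -0.85 ± 0.37 between Misc and SMP (adjusted p = 0.25 and 0.20), and Ifi205 by -0.78 ± 0.92 and -0.92 ± 0.92 (adjusted p = 0.68 and 0.64). Ifi205 was also lost without SMP WT replicate 1 or 2, Bst2 without SMP WT replicate 2 and, against FAP, without FAP WT replicate 3 (adjusted p = 0.052 to 0.14). Irf9 was also lost without FAP DKO replicate 2 or 4, FAP WT replicate 1 or 2, SMP DKO replicate 1 or SMP WT replicate 1 (adjusted p = 0.056 to 0.17). In the absence of SMP DKO replicate 2 Ddx58 and Parp14 were called higher between FAP and SMP, beside 4.54% of all genes, and Ddx58 and Parp9 between Misc and SMP, beside 4.10%.

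The receptors and regulators upstream of these genes were compared between genotypes. Of 11 receptors, kinases and regulators tested, edgeR called 0 in FAP and in SMP, with 3 and 2 at an unadjusted p below 0.05 and 1 and 0 by DESeq2, and in SMP 2 were lower without SMP DKO replicate 2. In Misc, Socs3, a feedback inhibitor of cytokine signals, was lower (log2 -0.42 ± 0.14, adjusted p = 0.042). Ifngr1, a chain of the interferon gamma receptor, averaged 181 ± 12.4 CPM in FAP DKO, against 226 ± 9.06 CPM in FAP WT (n = 4 each), and was not called (log2 -0.33 ± 0.11, adjusted p = 0.068). Ifnar1, Ifnar2 and Ifngr2 were called in no population.

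Of 13 tested genes of nucleic acid sensing upstream of interferon, 1 was higher and 1 lower in FAP DKO, 3 and 0 in Misc DKO, and 2 and 1 in SMP DKO (1 and 2 without SMP DKO replicate 2), beside 5.58% and 5.14% of all tested genes in FAP, 9.15% and 9.55% in Misc, and 11.8% and 11.2% in SMP. Tmem173 encodes STING, the adaptor for cytosolic DNA. FAP DKO averaged 47.0 ± 6.08 CPM of it, against 31.0 ± 1.95 CPM in FAP WT, and Misc DKO averaged 81.3 ± 20.9 CPM, against 44.2 ± 3.63 CPM in Misc WT (n = 4 each). Tmem173 rose by 0.59 ± 0.15 in FAP (adjusted p = 0.0090) and by 0.88 ± 0.14 in Misc (adjusted p = 0.00011), and was not called in SMP (0.24 ± 0.21, adjusted p = 0.42). Mb21d1, which encodes the DNA sensor cGAS, rose in Misc by 1.05 ± 0.29 (adjusted p = 0.012). Mavs, the adaptor of the RNA sensors, fell in FAP by 0.42 ± 0.12 (adjusted p = 0.023) and in SMP by 0.64 ± 0.18 (adjusted p = 0.012).

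Of 46 other interferon-stimulated genes tested, edgeR called 0 in FAP, with 9 at an unadjusted p below 0.05 and 0 by DESeq2. In Misc DKO 3 were higher and 4 lower, beside 9.15% and 9.55% of all tested genes. The lower ones were Cmpk2 (log2 -0.99 ± 0.20), Samd9l (-0.83 ± 0.17), Ifitm1 (-0.71 ± 0.25) and Irf8 (-0.59 ± 0.20), and the higher ones were Ifitm3 (0.53 ± 0.14), Cd47 (0.34 ± 0.12) and Tdrd7 (0.33 ± 0.08). In SMP DKO 7 were higher and none lower, beside 11.8% and 11.2%, and without SMP DKO replicate 2 these counts were 1 and 6 of 47 tested. Of 21 other class I genes, Nlrc5, a transactivator of class I promoters, was higher in FAP DKO (1.43 ± 0.42, adjusted p = 0.029), at 2.93 ± 1.2 CPM against 1.05 ± 0.489 CPM in FAP WT. In Misc DKO, H2-T24 (-1.69 ± 0.39) and Erap1 (-0.33 ± 0.11) were lower. EdgeR called no others of the 21 in FAP or Misc. Of all tested genes, 5.58% were higher and 5.14% lower in FAP, and 9.15% and 9.55% in Misc. With both SMP DKO libraries in the fit, 3 of the 21 were higher in SMP DKO (DESeq2 5) and 0 lower, beside 11.8% and 11.2%. Cxcl10, a chemokine induced by interferon gamma, fell in Misc by 0.81 ± 0.25 (adjusted p = 0.031). It averaged 62.1 ± 14.8 CPM in FAP DKO, against 98.8 ± 15.7 CPM in FAP WT, a difference that edgeR did not call. Immune markers summed to 26.6 to 76.9 CPM in FAP DKO, against 13.2 to 34.2 CPM in FAP WT, and to 17.5 to 33.3 CPM in Misc DKO, against 14.7 to 21.0 CPM in Misc WT, with 1 of 12 tested called higher in each. Fibroblast and tendon markers summed to 4048 to 7019 CPM in FAP DKO, against 1251 to 1503 CPM in FAP WT, and satellite cell markers to 1275 to 1570 CPM in Misc DKO, against 628 to 702 CPM in Misc WT. FAP markers summed to 46214 to 61608 CPM in Misc DKO, against 68515 to 77553 CPM in Misc WT, and muscle fibre markers to 44.9 to 83.2 CPM in Misc DKO, against 29.7 to 38.6 CPM in Misc WT. The part of these markers in the FAP and Misc calls was not tested.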

How the data were processed

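RNA of 20 libraries was sequenced on an Illumina HiSeq as 100-base paired reads, per the series design text, which names the OSA aligner, mm10 and RefSeq annotation. The authors deposited 1 table of whole-number counts per gene. The labels and design text used here do not say how reads were assigned to genes or whether strand was used, so overlapping genes and close paralogs are uncertain. The submitters' processing notes also name DESeq2. Of the symbols, 25 blank and 27 turned into dates were restored from their Entrez identifiers. All 6 groups entered 1 edgeR 4.0.16 quasi-likelihood fit (R 4.3.3, TMM, filterByExpr with minimum count 10), adjusted by Benjamini-Hochberg over 14179 genes and called below 0.05. DESeq2 1.42.0, other filters, designs and left-out libraries were alternatives. FAP and Misc libraries of the same replicate number correlated in their deviations from group means (0.181 to 0.343 in DKO and 0.175 to 0.234 in WT, 4 pairs each; other numbers at most 0.063), so these numbers pair FAP with Misc, from this check alone. Values for every library were given for genes called between genotypes and the most abundant gene of each role. Genes and lists were chosen with earlier results of these data known. The fit was tested on simulated data. The result for 1 withheld gene of the pathway is not reported here.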

Additional observations from a re-analysis of the deposited data

Results flagged for a closer look

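Among 60 groups of 4 libraries examined over 15 genes, 2 held 1 library far from the other 3, and chance flags about 1 in 20 such groups. Ifi205 was at 37.4 CPM in Misc DKO replicate 4, against 76.9 to 84.5 CPM in the other Misc DKO libraries. Oas2 was at 0.315 CPM in Misc WT replicate 2, against 0.0911 to 0.118 CPM in the other Misc WT libraries, from few counts. The genotype difference itself differed between populations for 3 genes by edgeR's quasi-likelihood test. Between FAP and SMP it differed by 0.80 on the log2 scale for Irf9, by -1.14 for Bst2 and by -4.24 for Ifi205. Between Misc and SMP it differed by -1.25 for Bst2 and by -4.38 for Ifi205. All 5 calls were lost without SMP DKO replicate 2. The value for Irf9 was then 0.87 (adjusted p = 0.066). That for Bst2 was -0.74 between FAP and SMP and -0.85 between Misc and SMP (adjusted p = 0.25 and 0.20), and that for Ifi205 was -0.78 and -0.92 (adjusted p = 0.68 and 0.64). The 16 immune markers of that library summed to 455 CPM, against 36.5 CPM in SMP DKO replicate 1, and their part was not tested.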

How the results depend on the processing

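Over 1060 values of single genes under the alternatives, for 90 calls, 959 kept direction and side of the threshold, 101 lost the call and 0 reversed. Counts that moved by more than 1.5 times are given here, and the cause was not tested. With the replicate block, 1 gene was higher in the FAP and Misc difference of the DKO effect (0 without it) and 1 was lower in FAP than in Misc in DKO (0 without it), and other blocked counts stayed within 1.5 times. At an adjusted p below 0.01, the FAP and SMP difference held 0 higher and 0 lower, the Misc and SMP difference 0 lower, Misc DKO 1 higher, SMP DKO 2 higher, and Misc against SMP in DKO 3 lower. At 0.1, the differences held 5 lower (FAP and SMP) and 4 lower (Misc and SMP), and FAP DKO 2 higher. DESeq2 gave 5 lower for the FAP and SMP difference. With only the compared groups in the fit, the differences held 1 lower (FAP and SMP) and 0 lower (Misc and SMP), Misc DKO had 1 higher, SMP DKO 0 higher, and Misc against SMP in DKO 3 higher. Leaving out 1 library at a time, the FAP and SMP difference ranged from 0 to 2 higher and 0 to 7 lower, and the Misc and SMP difference from 0 to 2 higher and 0 to 9 lower. Genes higher ranged from 1 to 2 in Misc DKO and from 0 to 14 in SMP DKO, where 1 to 6 were lower. FAP against SMP in DKO ranged from 16 to 37 higher and 0 to 1 lower, Misc against SMP in DKO from 2 to 13 higher and 1 to 12 lower, and Misc against SMP in WT from 3 to 5 lower. Where 1 SMP library was left in a group, it was assumed to vary like the other groups. In the main fit DKO and WT libraries of the same number were not paired, and their deviations from group means correlated at -0.164 to 0.292. For FAP against Misc, and the difference of their DKO effects, the replicate block held the number within each genotype. For all other comparisons it shared the number across all groups, DKO and WT included, a pairing that the labels do not give. The SMP groups held 2 libraries each, which limits the precision there.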
